A study of Homo sapiens with 51 samples.

Results

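The 4 alkaline phosphatase genes of the human genome, ALPG, ALPP, ALPI and ALPL, were followed across 17 groups of pancreatic ductal adenocarcinoma cell lines. They are 4 of the 25421 gene symbols in the count table, and their rows were taken by symbol. The set was chosen on measured values: ALPG was higher with OVOL2, a zinc-finger transcription factor, in the line PANC1. The PANC1 values with OVOL2 are therefore a description here and carry no test. ALPG and ALPP are close copies, and the sum of their counts is given beside the single genes. The libraries were made by PLATE-seq, in which cDNA primed at the 3′ end of messenger RNA is barcoded in plates and pooled, from 100 ng of total RNA taken after 6 days of culture. KP4, PANC1 and PK45H each had 5 groups of 3 libraries: untreated, mCherry, OVOL2, mCherry + M2rtTA and OVOL2 + M2rtTA. HPAFII and PATU8988S had 3 untreated libraries each. In the transduced groups, lentivirus carried an open reading frame for OVOL2 or, as the control, for the fluorescent protein mCherry, at a multiplicity of infection of 2 with polybrene at 8 µg/ml. M2rtTA, a transactivator for tetracycline-inducible promoters, came on a second virus in its groups. Per the labels, selection and induction began the next day in both arms, with 2.5 µg/ml of puromycin and 0.6 µg/ml of doxycycline. The labels describe triplicate transductions and do not say whether the untreated libraries came from separate cultures, so p-values measure the spread between these libraries, which may in part be technical.

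Alkaline phosphatases are homodimeric metalloenzymes that sit on the outer face of the plasma membrane through a glycosylphosphatidylinositol (GPI) anchor and remove phosphate groups from many substrates at alkaline pH. ALPP encodes the placental enzyme, ALPG the germ cell enzyme, ALPI the intestinal brush border enzyme and ALPL the tissue-nonspecific enzyme of liver, bone and kidney, which hydrolyses the mineralisation inhibitor pyrophosphate and the vitamin B6 form pyridoxal phosphate. The placental and germ cell enzymes are known from testis, placenta and a number of tumours.

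In GRCh38.p14, ALPP lies at chr2:232378751-232382889, ALPG at chr2:232406844-232410714 and ALPI at chr2:232456153-232460753, all on the plus strand and in this order. ALPL lies apart from them at chr1:21508984-21578410, also on the plus strand. GENCODE gives 11 exons to each of the transcripts of ALPP, ALPG and ALPI that were compared, and 12 to that of ALPL. The 250 bases before the ALPG start, chr2:232406594-232406843 on the plus strand, are shown because ALPG and ALPP varied differently across the same groups although these stretches are alike. They are from RefSeq, written 5′ to 3′, and the 34 capitals mark bases that are not matched by the same base of ALPP when the 250 bases before both starts are aligned.
ALPG: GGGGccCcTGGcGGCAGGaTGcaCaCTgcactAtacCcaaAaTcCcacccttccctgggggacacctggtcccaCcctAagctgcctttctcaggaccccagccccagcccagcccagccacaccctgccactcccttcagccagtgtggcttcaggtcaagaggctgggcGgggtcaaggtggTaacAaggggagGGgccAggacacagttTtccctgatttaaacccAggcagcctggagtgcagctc
The alignment held 216 identical bases in 256 columns, an identity of 84.4%, against 57.9% between ALPG and ALPI. Motifs were searched on both strands of the windows from 250 bases before to 50 bases after each start. The OVOL core CCGTTA had 0 matches in the 4 genes and stood in 3.1% of the 35116 promoters of the table. The E-box CACCTG, which ZEB factors bind, stood once in ALPG, with its first base at -188 from the start, and once in ALPP, at -193. It stood in 20.6% of all promoters. The GC box GGGCGG stood once in ALPG, at -83, and once in ALPI, at -106. It also stood 4 times at 1 of the 3 starts of ALPL, and in 45.0% of all promoters. The TATA box TATAAA had 1 match, at the same start of ALPL, and stood in 11.5% of all promoters. The matches in ALPG do not overlap each other.

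How far the counts of ALPG and ALPP can be told apart was read from their GENCODE transcripts, of 2493 and 2971 bases. They share 922 stretches of 31 bases, which are 37.4% of those in ALPG and 31.3% of those in ALPP, and the longest shared run is 339 bases. In the last 300 bases, the end from which PLATE-seq primes, 0 of the 270 such stretches of ALPG occur in ALPP. ALPG and ALPI share 3 there, and ALPL shares none with the other members along its whole transcript. Reads from the 3′ end can thus be assigned to ALPG or ALPP, while reads from further inside may not be. Where the reads fell is not given in the sources used here.

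Library totals ran from 1165399 counts, in HPAFII, to 7490556, in PANC1. All 8 ductal epithelial markers had more than 3 counts in at least 1 library of each line, and their summed level was lowest in KP4 (653.7 to 1249 CPM) and highest in HPAFII (5437 to 14560 CPM). Summed markers of other pancreatic and blood cells stayed low, at up to 72.7 CPM for acinar, 1.81 for endocrine, 30.4 for leukocyte, 13.7 for endothelial and 21.4 for erythroid genes. CPM are counts scaled to the size of the library with TMM factors. Counts of OVOL2 itself were not raised in the libraries labelled OVOL2 without M2rtTA: KP4 had 1.16 ± 0.474 CPM of OVOL2 with the OVOL2 virus and 1.12 ± 1.00 with mCherry, PANC1 0.886 ± 0.613 and 1.13 ± 0.899, and PK45H 1.46 ± 0.359 and 1.25 ± 0.915 (SD, n = 3). With M2rtTA the pairs were 4.98 ± 4.74 and 0.538 ± 0.588 CPM in KP4, 2.15 ± 0.703 and 0.851 ± 0.616 in PANC1, where the libraries overlapped, and 4.52 ± 0.228 and 1.11 ± 0.597 in PK45H. The summed level of 4 mesenchymal markers was nevertheless lower with OVOL2 in both arms of each line. In PANC1 it ran from 635.8 to 728.4 CPM with OVOL2 and from 2631 to 3020 with mCherry without M2rtTA, and from 618.7 to 753.3 and from 2568 to 2856 with it. Whether the viral OVOL2 transcript holds the 3′ end that was counted is not given in the sources used here. All levels below are CPM as mean ± SD over 3 libraries, and bulk libraries cannot tell more RNA per cell from more cells that make it.

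ALPG was the member with the most counts, 2364 over all 51 libraries, with at least 1 count in each. ALPP had 288 counts in 48 libraries, ALPL 212 in 35 and ALPI 7 in 3. A filter on low counts within each line kept ALPG in KP4 and PANC1 and ALPL in KP4, and in the comparison of untreated lines it kept ALPG and ALPP. The filter kept ALPP there through its levels in HPAFII and PATU8988S, and ALPG through its higher lines, such as PANC1. In KP4 the highest ALPG counts, 28 and 15, were in libraries with OVOL2, which helped it pass the filter. The KP4 tests of ALPG are thus not independent of OVOL2. In PK45H no single member passed it, only the sum of ALPG and ALPP.

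**Figure D1:**
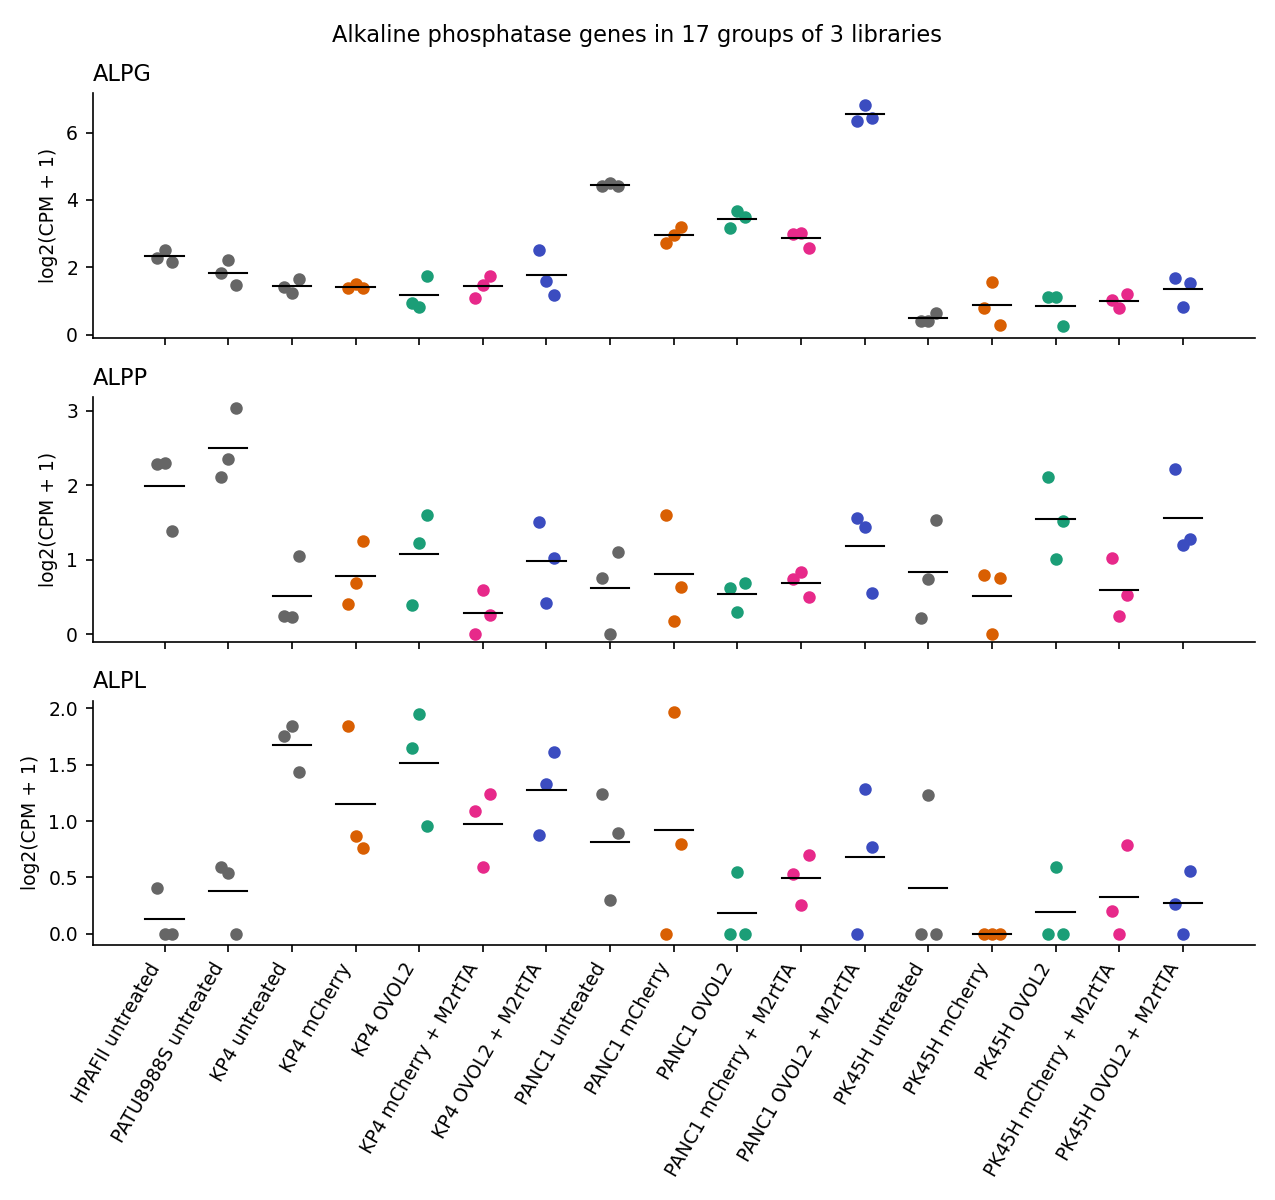
Levels of ALPG, ALPP and ALPL as log2(CPM + 1), one point per library and a line at the mean of each group of 3, with colours for the treatment. ALPG in PANC1 with OVOL2 + M2rtTA stands above all other libraries, ALPP has its highest means in PATU8988S and HPAFII, and ALPL in untreated KP4, although the highest single ALPL library is PANC1 mCherry replicate 2.

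In PANC1, ALPG was far higher with OVOL2 + M2rtTA than in any other group. The 3 libraries with OVOL2 + M2rtTA had ALPG levels of 79.96, 112.9 and 85.95 CPM (92.9 ± 17.5), from 328, 787 and 366 counts. Those with mCherry + M2rtTA had 6.892, 7.168 and 4.985 CPM (6.35 ± 1.19), from 31, 37 and 24 counts. Every library with OVOL2 lay far above every library with mCherry, and the ratio of means was 14.64. Without M2rtTA the ALPG levels were 8.055, 11.76 and 10.26 CPM (10.02 ± 1.86) in the libraries labelled OVOL2 and 5.626, 6.761 and 8.26 CPM (6.88 ± 1.32) with mCherry. The groups overlapped there, since the lowest OVOL2 library lay below the highest mCherry library, and the ratio of means was 1.457. The summed mesenchymal markers had overlapping ranges in these libraries and in those with OVOL2 + M2rtTA. The fitted log2 fold changes of ALPG were 3.90 with M2rtTA and 0.55 without it. Of all 13218 genes tested in PANC1, 12.9% had every OVOL2 + M2rtTA library above every mCherry + M2rtTA library, 5.76% passed the test as higher in that comparison, and 11.1% lay wholly above in the other arm. These values chose the set and are given as they are.

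The untreated PANC1 libraries had more ALPG than the mCherry control. ALPG stood at 20.36, 21.89 and 20.11 CPM (20.8 ± 0.962) untreated, 3.02-fold the level with mCherry, and the groups did not overlap. The fitted log2 change from untreated to mCherry was -1.57 for ALPG and -1.44 for the sum. The mCherry libraries are also the controls of the libraries labelled OVOL2, whose comparison chose the set, so these values too are a description and carry no test. Of the 13218 genes tested, 0.598% passed in this comparison, 43 as lower and 36 as higher, and 8.95% had every mCherry library below every untreated one. M2rtTA did not separate the controls: ALPG stood at 6.35 ± 1.19 CPM with mCherry + M2rtTA, within the spread of mCherry alone. With OVOL2 + M2rtTA, ALPG was 4.471-fold the untreated level, again without overlap, as in 13.2% of the genes tested. Transduction, mCherry, puromycin and doxycycline cannot be told apart in this comparison. The summed ductal markers were also higher in untreated PANC1, at 3054 to 3436 CPM against 2265 to 2714 with mCherry. With OVOL2 + M2rtTA, where ALPG was highest, they ran from 2050 to 2356 CPM, against 2295 to 2622 with mCherry + M2rtTA. The part of these markers in the ALPG results was not tested.

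**Figure D2:**
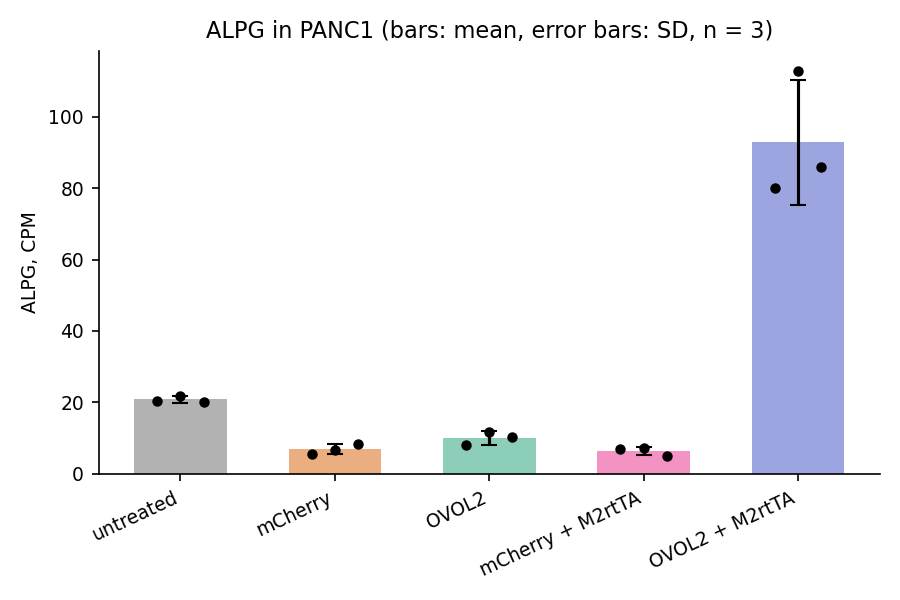
ALPG in the 5 groups of PANC1 in CPM: bars are means, error bars SD and points the 3 libraries. The level is 20.8 CPM untreated, between 6.35 and 10.02 in 3 transduced groups and 92.9 with OVOL2 + M2rtTA.

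Among untreated lines ALPG was highest in PANC1 and lowest in PK45H. PANC1 stood at 20.8 ± 0.962 CPM, HPAFII at 4.02 ± 0.606, PATU8988S at 2.66 ± 0.938, KP4 at 1.72 ± 0.386 and PK45H at 0.415 ± 0.141. PK45H had 2, 2 and 4 ALPG counts. PANC1 exceeded PK45H by 5.55 on the log2 scale (SE 0.35, edgeR adjusted p = 7.41e-08) and HPAFII by 2.39 (HPAFII against PANC1: -2.395, SE 0.29, edgeR adjusted p = 2.73e-05). Of the 10 pairs of lines, 8 passed the test for ALPG. It passed the low-count filter of this fit through its higher lines, such as PANC1. The ALPG tests between untreated lines are thus not independent of which lines were high, and are no further support for that order. Of all 13785 genes, 20.2% passed between HPAFII and PATU8988S, 29.9% between HPAFII and KP4, 28.7% between HPAFII and PANC1 and 25.2% between HPAFII and PK45H. PATU8988S gave 32.5% against KP4, 29.3% against PANC1 and 28.3% against PK45H, and the other pairs gave 21.9% (KP4 and PANC1), 23.5% (KP4 and PK45H) and 25.6% (PANC1 and PK45H). HPAFII and PATU8988S, next to each other in the order, did not pass (0.55, SE 0.33, adjusted p = 0.331), nor did PATU8988S and KP4 (0.68, SE 0.33, adjusted p = 0.138). The call of HPAFII over KP4 (1.23, SE 0.34, adjusted p = 0.0127) was lost without KP4 untreated replicate 2 (adjusted p = 0.0551) and in a fit of these lines alone (0.0623). KP4 exceeded PK45H by 1.92 (SE 0.41, adjusted p = 0.00304).

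Outside PANC1, ALPG stayed low in all transduced groups, and no change with OVOL2 passed a test. In KP4 with OVOL2 + M2rtTA, ALPG stood at 4.694, 2.024 and 1.281 CPM (2.67 ± 1.80), against 1.121, 1.787 and 2.33 with mCherry + M2rtTA (1.75 ± 0.606). The groups overlapped, with replicate 1 alone above the controls. KP4 libraries labelled OVOL2 without M2rtTA had 1.34 ± 0.875 CPM against 1.69 ± 0.138. The ALPG changes in KP4 were 0.63 with M2rtTA (SE 0.52, edgeR adjusted p = 0.425) and -0.30 without it (SE 0.54, adjusted p = 0.834), and the first turned to -0.06 without KP4 OVOL2 + M2rtTA replicate 1. In KP4, 22.4% of all genes tested passed with M2rtTA and 6.82% without it. In PK45H, ALPG stood at 2.224, 0.7767 and 1.893 CPM (1.63 ± 0.759) with OVOL2 + M2rtTA against 1.034, 0.7404 and 1.306 (1.03 ± 0.283) with mCherry + M2rtTA, again with overlap. All 3 lay above the untreated PK45H libraries, at 3.934-fold, as did 16.2% of all genes tested, on 22 against 8 counts. The 3 mCherry + M2rtTA libraries lay above the untreated ones as well. Over KP4 and PK45H together, the mean difference of ALPG in log2(CPM + 1) was 0.34 with M2rtTA (exact permutation test within lines, two-sided, p = 0.215, adjusted over 6 such tests 0.375) and -0.15 without it (exact p = 0.545, adjusted 0.545). The smallest p these 400 assignments allow is 0.005.

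ALPP had another order of levels than ALPG. Untreated PATU8988S stood highest at 3.294, 4.112 and 7.17 CPM (4.86 ± 2.04), followed by HPAFII at 3.881, 3.907 and 1.617 (3.14 ± 1.32). PK45H at 0.905 ± 0.880, PANC1 at 0.609 ± 0.578 and KP4 at 0.474 ± 0.514 were lower. In mean log2 level, HPAFII and PATU8988S together exceeded KP4, PANC1 and PK45H by 2.57 in ALPP (SE 0.54, edgeR adjusted p = 0.00184), while ALPG gave 0.39 (SE 0.21, adjusted p = 0.222) in the same comparison. There 34.8% of the 13785 genes passed, 17.4% as higher. The ALPG value is a mean of unlike lines: HPAFII and PATU8988S, at 4.02 and 2.66 CPM, lay below PANC1 (20.8) and above PK45H (0.415). ALPP passed the low-count filter of this fit through its levels in HPAFII and PATU8988S. Untreated KP4 libraries had at most 1.068 CPM of ALPP, PANC1 1.149 and PK45H 1.878. The ALPP tests between untreated lines are thus not independent of which lines were high, and are no further support for that order. For ALPP, 4 of the 10 pairs of lines passed, and 1 of them, PATU8988S over KP4 (3.37, SE 0.86, adjusted p = 0.00693), kept its call whichever library was left out. HPAFII over KP4 (adjusted p = 0.0382) was lost without HPAFII replicate 1 or 2 or KP4 replicate 1 or 2, with adjusted p up to 0.131. PATU8988S over PANC1 (0.017) was lost without PATU8988S replicate 3 or PANC1 replicate 1 or 2, with up to 0.0688. PATU8988S over PK45H (0.0308) was lost without PATU8988S replicate 2 or 3 or PK45H replicate 1 or 2, with up to 0.128.

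In PK45H every library labelled OVOL2 had more ALPP than every mCherry library of its arm. With M2rtTA, ALPP stood at 3.64, 1.294 and 1.42 CPM (2.12 ± 1.32), from 18, 5 and 6 counts, against 1.034, 0.1851 and 0.4353 CPM (0.551 ± 0.436), from 7, 1 and 3 counts. Without M2rtTA it stood at 3.304, 1.008 and 1.867 CPM (2.06 ± 1.16), from 14, 6 and 9 counts, against 0.7365, 0 and 0.6893 CPM (0.475 ± 0.412), from 3, 0 and 3 counts. The ratios of means were 3.842 and 4.334. Such a gap was seen in 15.7% and 15.1% of all genes tested in PK45H, and ALPP itself was too low for that test. Untreated PK45H libraries had 0.1649, 0.673 and 1.878 CPM of ALPP, from 1, 4 and 13 counts. They overlapped the OVOL2 libraries of both arms, so the gap was to the mCherry libraries alone. The summed ductal markers of PK45H ran from 4718 to 4828 CPM with OVOL2 + M2rtTA and from 1925 to 2062 with mCherry + M2rtTA. Without M2rtTA they ran from 4403 to 4801 with OVOL2 and from 2661 to 3069 with mCherry. With M2rtTA, the summed erythroid markers also ran higher with OVOL2, from 14.2 to 21.4 against 3.19 to 5.17 CPM, as did the leukocyte markers, from 5.66 to 9.70 against 2.61 to 3.54, and the mesenchymal markers ran lower, from 171.6 to 213.5 against 259.3 to 271.0. Of the 2 erythroid markers, 1 had more than 3 counts in any PK45H library. Acinar, endocrine and endothelial markers had overlapping ranges. The part of these markers in the result was not tested. In KP4 the groups overlapped: ALPP stood at 1.07 ± 0.754 against 0.235 ± 0.258 CPM with M2rtTA, from 17 and 3 counts in sum, and at 1.22 ± 0.870 against 0.773 ± 0.546 CPM without it. Over both lines, the mean difference of ALPP in log2(CPM + 1) was 0.83 with M2rtTA (exact permutation p = 0.015, adjusted over the 6 tests 0.09) and 0.66 without it (exact p = 0.075, adjusted 0.225). Neither passed after adjustment. Leaving out 1 library gave exact p of 0.005 to 0.03 with M2rtTA and 0.025 to 0.145 without it; the latter fell to 0.025 without KP4 OVOL2 replicate 1 and to 0.04 without KP4 mCherry replicate 3. In PANC1, ALPP stood at 1.38 ± 0.797 CPM with OVOL2 + M2rtTA against 0.619 ± 0.185, with overlap, beside the much larger difference in ALPG.

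The share of ALPG in the counts of ALPG and ALPP differed between lines. It describes how the counts split, not the relative amounts of the 2 transcripts, and its exact 95% binomial intervals cover counting error only. In PANC1 it was 97.3% (94.6% to 98.9%) untreated, 91.1% (83.8% to 95.8%) with mCherry + M2rtTA and 98.5% (97.8% to 99.1%) with OVOL2 + M2rtTA, where ALPP gave 22 of 1503 counts. KP4 untreated had 79.4% (62.1% to 91.3%), HPAFII 57.4% (43.2% to 70.8%), PATU8988S 36.8% (26.7% to 47.8%) and PK45H 30.8% (14.3% to 51.8%). In PK45H it was 43.1% (29.4% to 57.8%) with OVOL2 + M2rtTA and 64.5% (45.4% to 80.8%) with mCherry + M2rtTA. Single libraries of PK45H ran from 10% to 100%, on 15 to 51 counts per group, so the groups of PK45H cannot be ordered by this share.

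**Figure D3:**
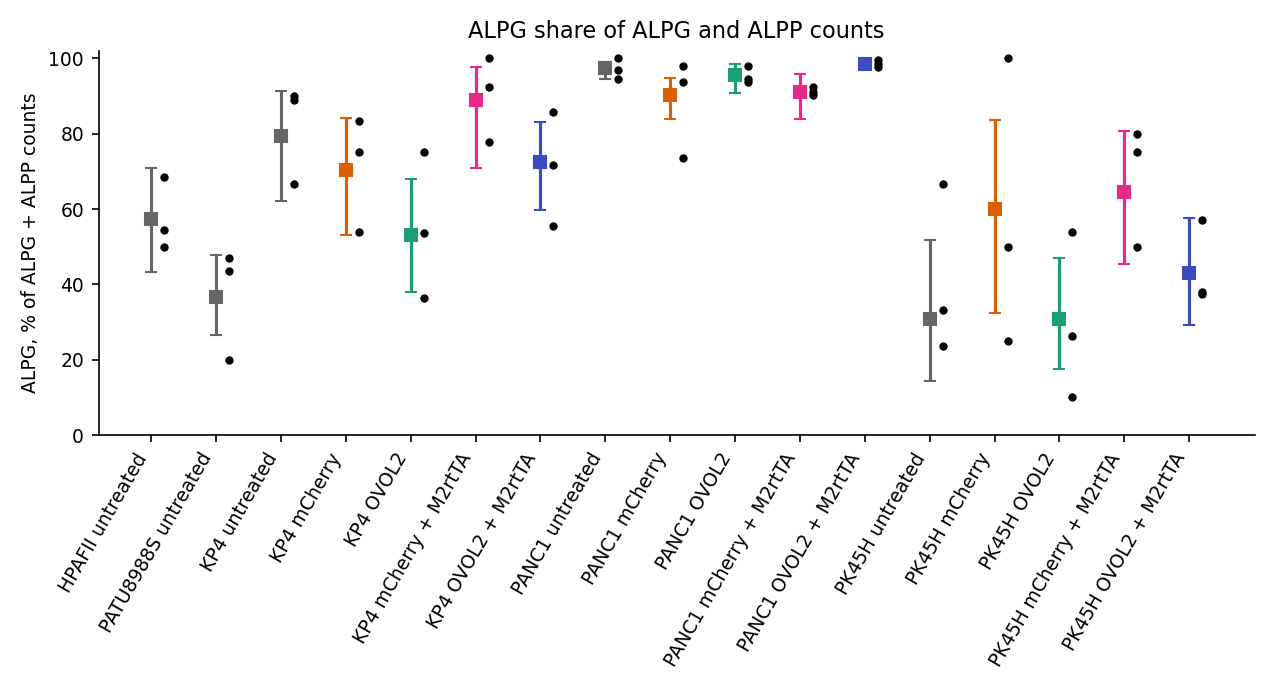
Percent of the ALPG and ALPP counts that belong to ALPG, by group: squares are the pooled counts of 3 libraries with exact 95% binomial intervals, and black points the single libraries. The 5 groups of PANC1 lie between 90.3% and 98.5%, and PATU8988S at 36.8%.

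The sum of ALPG and ALPP was tested in a fit in which it replaced both rows. In PK45H it stood at 5.864, 2.071 and 3.313 CPM (3.75 ± 1.93) with OVOL2 + M2rtTA and at 2.067, 0.9254 and 1.741 CPM (1.58 ± 0.588) with mCherry + M2rtTA. The libraries did not overlap, with 2.071 just above 2.067, as in 15.7% of all genes tested. The change was 1.24 (SE 0.56, unadjusted p = 0.0425, edgeR adjusted p = 0.153), where 15.9% of the 13583 genes passed. Without M2rtTA it was 1.01 (SE 0.62, adjusted p = 0.357), where 8.39% passed, and the libraries again did not overlap. The untreated PK45H libraries, at 0.4946, 1.01 and 2.456 CPM, overlapped those with OVOL2 in both arms. In KP4 the sum changed by 0.93 with M2rtTA (SE 0.55, adjusted p = 0.254), from 1.98 ± 0.753 to 3.74 ± 2.43 CPM, and by 0.08 without it (SE 0.54, adjusted p = 0.962). None of these 4 tests passed. The KP4 value without M2rtTA turned to -0.10 without KP4 mCherry replicate 1 and to -0.57 without KP4 OVOL2 replicate 3, and the KP4 value with M2rtTA ran from 0.23, without OVOL2 + M2rtTA replicate 1, to 1.19. The difference of the OVOL2 effect between KP4 and PK45H was -0.28 with M2rtTA (SE 0.79, adjusted p = 0.922) and -0.92 without it (SE 0.84, adjusted p = 0.697), where 2.93% and 1.8% of all genes passed. The difference between the arms was 0.84 in KP4 (SE 0.78, adjusted p = 0.664) and 0.24 in PK45H (SE 0.85, adjusted p = 0.922), where 1.43% and 1.6% passed in edgeR, shares that were higher in DESeq2. From untreated to mCherry the sum changed by 0.18 in KP4 (SE 0.56, adjusted p = 0.993) and by 0.07 in PK45H (SE 0.66, adjusted p = 0.991), where 0% and 0.00736% of all genes passed in edgeR. In KP4, 508 genes were higher and 458 lower at an unadjusted p under 0.05, and DESeq2 called 3 and 2. Among untreated lines, 8 of 10 pairs passed for the sum. The sum, too, passed the filter of that fit through its higher lines, so these tests are no further support for the order of lines. HPAFII and PATU8988S, at 7.16 ± 1.82 and 7.52 ± 1.58 CPM, gave a difference of 0.86 in mean log2 level from the other lines (SE 0.26, adjusted p = 0.0188). This is a mean of unlike lines: untreated PANC1, at 21.4 ± 0.4398 CPM, lay above both (HPAFII against PANC1 -1.61, edgeR adjusted p = 0.005; PATU8988S against PANC1 -1.53, adjusted p = 0.0046), and KP4 and PK45H lay below, at 2.19 ± 0.886 and 1.32 ± 1.02. The call was lost without HPAFII replicate 1 (0.80, adjusted p = 0.0529).

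**Figure D4:**
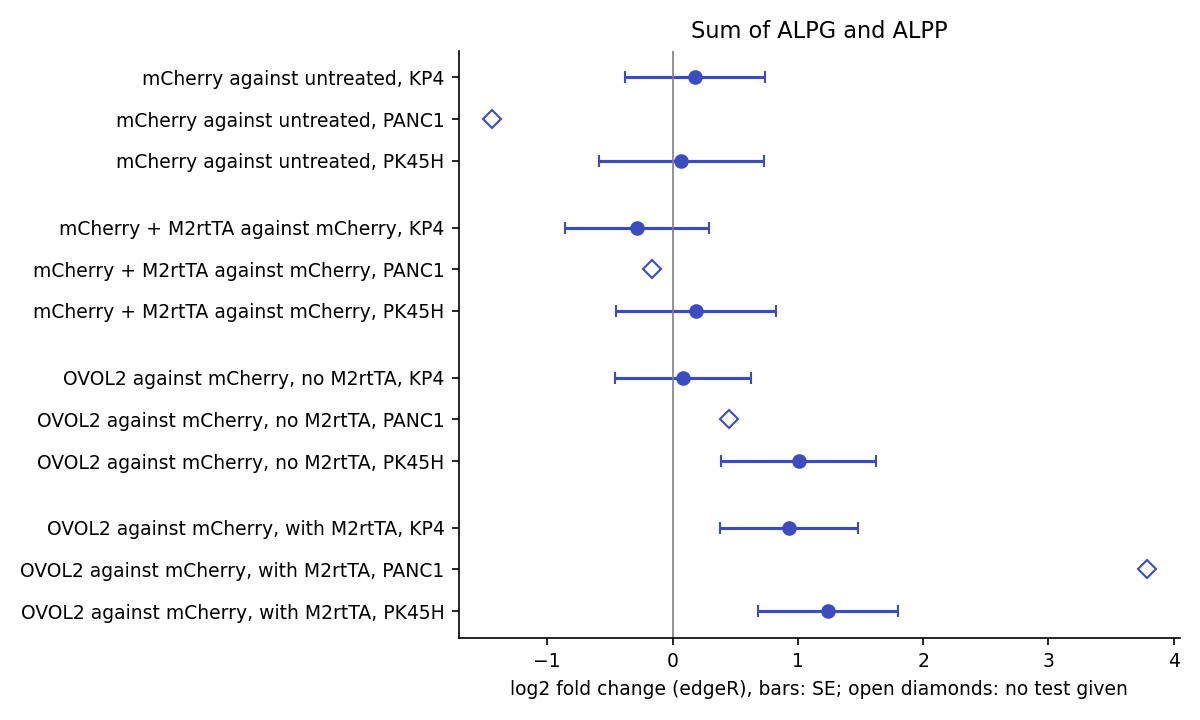
Log2 fold changes of the summed ALPG and ALPP counts by comparison and line, with bars for SE. Open diamonds are the PANC1 values, for which no test is given. PANC1 stands apart at 3.79 for OVOL2 with M2rtTA and at -1.44 for mCherry against untreated.

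ALPL, the tissue-nonspecific member, was highest in KP4 among untreated lines. Untreated KP4 had 2.376, 2.579 and 1.708 CPM (2.22 ± 0.455), from 13, 15 and 8 counts, against 0.816 ± 0.566 in PANC1, 0.449 ± 0.777 in PK45H, 0.321 ± 0.279 in PATU8988S and 0.108 ± 0.187 in HPAFII. In the 2 last lines it had 4 and 1 counts in sum. With mCherry alone, ALPL had 0 counts in the 3 PK45H libraries, which allows up to 0.274 CPM over the group. In KP4, ALPL changed by 0.48 with OVOL2 + M2rtTA (SE 0.62, edgeR adjusted p = 0.63), from 0.997 ± 0.438 to 1.47 ± 0.607 CPM, and by 0.47 without M2rtTA (SE 0.55, adjusted p = 0.716), from 1.36 ± 1.05 to 1.98 ± 0.967 CPM. Over KP4 and PK45H the mean differences in log2(CPM + 1) were 0.12 with M2rtTA (exact permutation p = 0.525) and 0.28 without it (exact p = 0.25), adjusted 0.545 and 0.375. PANC1 mCherry replicate 2 had the highest ALPL level of all libraries, 2.916 CPM, and held 22 of the 26 ALPL counts of its group, and the libraries labelled OVOL2 without M2rtTA held 2. With OVOL2 + M2rtTA, ALPL in PANC1 stood at 0, 1.434 and 0.7045 CPM, which covers the range of mCherry + M2rtTA (0.1937 to 0.6231).

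ALPI, the intestinal member, was near the limit of detection. It had 4 counts in HPAFII untreated replicate 3, 2 in PATU8988S untreated replicate 2 and 1 in PANC1 mCherry + M2rtTA replicate 3. All other libraries had 0. In PANC1 with OVOL2 + M2rtTA a count of 0 allows up to 0.196 CPM over the group, in KP4 with OVOL2 + M2rtTA 0.204 and in PK45H 0.23.

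A list of 29 phosphate, pyrophosphate and extracellular nucleotide genes was counted, which holds enzymes, transporters and other proteins. In KP4 with M2rtTA, 2 of 18 tested rose with OVOL2 and 4 fell, with a median log2 fold change of -0.22 against 0.01 over all genes; 9.91% of all genes rose and 12.5% fell. ENTPD2, an ectonucleotidase, rose from 4.17 ± 0.638 to 15.5 ± 3.31 CPM (1.87, SE 0.29, edgeR adjusted p = 0.000388), and the pyrophosphatases PPA2 and PPA1 fell by 1.33 and 1.10 (adjusted p = 0.000218 and 0.000662). SPP1, the phosphoprotein osteopontin, fell by 1.25 (SE 0.18, adjusted p = 0.000278). SLC20A2, a phosphate importer, rose by 0.62 (adjusted p = 0.0189). Its call was lost without replicate 3 of mCherry + M2rtTA (0.082), without replicate 1 (0.0609) or 3 (0.0596) of OVOL2 + M2rtTA, and in a fit of the compared groups alone (0.0549). In PK45H with M2rtTA, 1 of 19 rose and 2 fell, with a median of 0.07, where 7.45% of all genes rose and 8.40% fell. ENTPD2 rose from 0.785 ± 0.23 to 7.64 ± 1.71 CPM (3.25, SE 0.46, adjusted p = 0.000336). NT5E, the GPI-anchored 5′-nucleotidase, fell from 100.5 ± 7.10 to 34.2 ± 1.55 CPM (-1.55, SE 0.15, adjusted p = 2.18e-05), and PPA1 fell by 0.53 (adjusted p = 0.0101). In PANC1 with M2rtTA, 0 of 17 rose in edgeR (0 at an unadjusted p under 0.05, 0 in DESeq2) and 7 fell (median -0.51), where 5.76% of all genes rose and 8.18% fell. Of the vitamin B6 list, 4 of 5 genes were in the table, and with M2rtTA 0 of 3 passed in KP4 in edgeR (1 higher and 1 lower at an unadjusted p under 0.05), 0 of 4 in PK45H (0 unadjusted) and 1 of 4, lower, in PANC1. DESeq2 called 0 in KP4 and 0 in PK45H.

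Alkaline phosphatases reach the membrane on a GPI anchor, and 34 genes of its synthesis, attachment and remodelling were counted. With M2rtTA, 4 of 31 rose and 2 fell in KP4 (median 0.03), 5 of 32 rose and 0 fell in PK45H (median 0.09), and 0 of 32 rose and 2 fell in PANC1 (median 0.15). Of all genes tested, 9.91% rose and 12.5% fell in KP4, 7.45% and 8.40% in PK45H and 5.76% and 8.18% in PANC1, so the KP4 rises are near the share of all genes. At an unadjusted p under 0.05, 1 fell in PK45H and 2 rose in PANC1, the same counts that DESeq2 called. The count in KP4 was 2 without mCherry + M2rtTA replicate 3. That in PK45H fell below 5 whichever library was left out, to between 2 and 4. It was 2 without mCherry + M2rtTA replicate 2 or 3 or in a fit of the compared groups alone, and 3 without OVOL2 + M2rtTA replicate 3. In KP4, PGAP6 rose by 1.14 (SE 0.19, edgeR adjusted p = 0.000868), and DPM2, a subunit of dolichol-phosphate mannose synthase, fell by 0.69 (SE 0.13, adjusted p = 0.00148). PGAP2, a remodelling factor, rose by 1.27 (adjusted p = 0.0119), with 0.0565 if replicate 3 of the KP4 mCherry + M2rtTA libraries was left out. GPLD1, a phospholipase that cuts GPI anchors, rose by 2.48 with a wide spread, from 6.42 ± 0.674 to 35.4 ± 28.9 CPM (adjusted p = 0.0128; 1.75 and 0.0698 without KP4 OVOL2 + M2rtTA replicate 2). PIGH, of the first step of synthesis, fell by 1.01 (adjusted p = 0.0075; 0.051 in a fit of the compared groups alone). In PK45H, PIGO, which adds phosphoethanolamine to the anchor, rose by 0.72 (SE 0.14, adjusted p = 0.00409). PIGQ rose by 1.19 (adjusted p = 0.0118; 0.053 without PK45H mCherry + M2rtTA replicate 3), and PIGV by 1.42 (adjusted p = 0.0272; 0.126 without PK45H OVOL2 + M2rtTA replicate 2, 0.0635 without mCherry + M2rtTA replicate 2 and 0.108 in a fit of the compared groups alone).

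Of 50 other genes for GPI-anchored surface proteins, 6 of 27 tested rose and 4 fell in KP4 with M2rtTA (median 0.13), and 4 of 30 rose and 6 fell in PK45H (median 0.16); in PANC1 3 of 27 rose and 6 fell (median -0.02). The shares of all genes were 9.91% higher and 12.5% lower in KP4, 7.45% and 8.40% in PK45H, and 5.76% and 8.18% in PANC1. In PK45H the 6 that fell became 3 or 4 whichever library was left out. In PK45H without mCherry + M2rtTA replicate 2 or OVOL2 + M2rtTA replicate 1, 1 rose and 3 fell, and in KP4 without mCherry + M2rtTA replicate 1, 2 fell. CD59, an inhibitor of the complement membrane attack complex, fell in KP4 and in PK45H, from 323.3 ± 16.7 to 181.4 ± 39.3 CPM in KP4 (-0.83, SE 0.14, edgeR adjusted p = 0.000898) and from 481.0 ± 39.1 to 312.6 ± 37.0 CPM in PK45H (-0.61, SE 0.11, adjusted p = 0.00235). NT5E fell by 1.34 in KP4 (adjusted p = 0.000773), besides the fall in PK45H given above. In KP4, carboxypeptidase M (gene CPM) rose by 0.82 (adjusted p = 0.00104), the NKG2D ligand gene ULBP2 by 1.88 (adjusted p = 0.00111) and the ephrin gene EFNA3 by 1.30 (adjusted p = 0.00161). PRNP, the prion protein gene, fell by 0.82 in KP4 (adjusted p = 0.0239), a call lost without KP4 mCherry + M2rtTA replicate 1 (0.0939), OVOL2 + M2rtTA replicate 1 (0.0896) or OVOL2 + M2rtTA replicate 2 (0.0536). In PK45H, the tumour antigen gene MSLN rose by 0.85 (adjusted p = 0.00431) and the complement regulator CD55 fell by 0.79 (adjusted p = 0.00428). PLAUR, the urokinase receptor, rose by 0.99 in PK45H (adjusted p = 0.0129), a call lost without mCherry + M2rtTA replicate 1 (0.0599) or replicate 2 (0.0558) or OVOL2 + M2rtTA replicate 1 (0.0507). GPC1, a glypican, rose by 0.92 in PK45H (adjusted p = 0.0198), a call lost without mCherry + M2rtTA replicate 2 (0.0639) or replicate 3 (0.0758) or OVOL2 + M2rtTA replicate 1 (0.0818).

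3 further lists cover the tissues in which alkaline phosphatases are best known. Their counts with M2rtTA stand beside 9.91% of all genes higher and 12.5% lower in KP4, 7.45% and 8.40% in PK45H, and 5.76% and 8.18% in PANC1, and with 8 to 12 genes tested per list 1 call is near those shares. Of 25 placental trophoblast genes, 0 of 9 tested passed in KP4 with M2rtTA in edgeR (2 at an unadjusted p under 0.05, 1 in DESeq2), 1 of 11 in PK45H, where GATA3 fell by 1.25 (edgeR adjusted p = 0.0273; up to 0.0993 without 1 library, here PK45H OVOL2 + M2rtTA replicate 3), and 1 of 9, higher, in PANC1. The GATA3 call was lost as well without PK45H mCherry + M2rtTA replicate 1 or 2 or OVOL2 + M2rtTA replicate 1. The median log2 fold change of the trophoblast genes with M2rtTA was 0.49 in KP4, 0.06 in PK45H and -0.30 in PANC1. Over all genes it was 0.013, 0.005 and 0.019. Of 26 intestinal brush border genes, 1 of 12 rose and 1 fell in KP4 (median -0.24), and 3 of 11 rose and 1 fell in PK45H (median -0.03). The 3 in PK45H became 1 in a fit of the compared groups alone or without mCherry + M2rtTA replicate 2 or 3 or OVOL2 + M2rtTA replicate 2 or 3. In PANC1 with M2rtTA 0 of 11 rose in edgeR (0 at an unadjusted p under 0.05, 0 in DESeq2) and 2 fell (median -0.38), and in PK45H without M2rtTA 0 of 11 rose (1 unadjusted, 0 in DESeq2) and 2 fell (median -0.06). ESPN, an actin-bundling protein of microvilli, rose in KP4 from 0.793 ± 0.247 to 4.99 ± 0.432 CPM (2.59, SE 0.34, adjusted p = 0.000122), and by 1.86 in PK45H (adjusted p = 0.0346), where leaving out any of the 4 libraries just named raised it to between 0.0755 and 0.134. DPP4, a brush border peptidase, rose by 1.85 in PK45H (SE 0.31, adjusted p = 0.00119) and EPS8, an actin-capping protein, fell by 2.06 (SE 0.25, adjusted p = 0.000103). CDHR2 in PK45H (1.15, adjusted p = 0.0359) and PLS1 in KP4 (-1.15, adjusted p = 0.0464) passed narrowly. The CDHR2 call was lost without PK45H mCherry + M2rtTA replicate 2 or 3 or OVOL2 + M2rtTA replicate 2 or 3 (adjusted p up to 0.137), and the PLS1 call without any single library of the KP4 groups compared other than OVOL2 + M2rtTA replicate 2 (up to 0.136). Of 19 bone mineralisation genes, 1 of 9 rose and 1, SPP1, fell in KP4 (median 0.24), 3 of 9 rose in PK45H (median 0.36), and 1 of 8 rose and 1 fell in PANC1 (median 0.10). COL1A1, a collagen chain of bone matrix, rose by 1.64 in KP4 (SE 0.23, adjusted p = 0.000211) and by 2.26 in PK45H (SE 0.29, adjusted p = 0.000156). BMP4, a bone morphogenetic protein, rose in PK45H from 92.9 ± 9.48 to 320.2 ± 23.9 CPM (1.79, SE 0.23, adjusted p = 0.000163). MSX2 rose by 1.24 in PK45H (adjusted p = 0.0137), a call lost without mCherry + M2rtTA replicate 1 (0.0522), mCherry + M2rtTA replicate 3 (0.063) or OVOL2 + M2rtTA replicate 1 (0.0537).

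Of the 10 protein-coding genes nearest to the cluster of ALPP, ALPG and ALPI, 5 were high enough to test in PANC1, and 0 passed with M2rtTA in edgeR (0 at an unadjusted p under 0.05, 0 in DESeq2), where 13.9% of all genes passed. With 5 genes, a count of 0 cannot be set apart from that share. ECEL1, PRSS56, CHRND and CHRNG, which lie nearest on 1 side, and NPPC on the other were too low to test in PANC1, and COPS7B, PDE6D and PTMA, 3 of the 5 tested, lie 569.5 to 665.2 kb away. Without M2rtTA 0 passed in edgeR (2 unadjusted, 1 in DESeq2), where 5.08% did. In KP4 with M2rtTA, where 12.5% of all genes fell and 9.91% rose, 3 of 6 fell and 0 rose: PDE6D, a prenyl-binding protein 597.5 kb away, by 0.97 (SE 0.18, edgeR adjusted p = 0.00137), TIGD1 by 0.69 (SE 0.13, adjusted p = 0.00216) and PTMA by 0.38 (adjusted p = 0.04). The PTMA call was lost without any single library of the groups compared other than OVOL2 + M2rtTA replicate 1 (adjusted p up to 0.13). In PK45H, where 8.40% of all genes fell, 1 of 5 fell, PDE6D, by 0.93 (SE 0.21, adjusted p = 0.00884). Of the 10 genes around ALPL on chromosome 1, 9 were tested in KP4 and PK45H and 8 in PANC1. With M2rtTA, 1 rose and 1 fell in KP4, 1 rose in PK45H and 2 fell in PANC1. Of all genes, 9.91% rose and 12.5% fell in KP4, 7.45% rose in PK45H and 8.18% fell in PANC1. Without M2rtTA, 1 rose in PK45H, where 8.39% of all genes passed. With so few genes, these counts cannot be set apart from those shares. RAP1GAP, a GTPase-activating protein gene 17.8 kb away, rose in PK45H by 2.38 with M2rtTA (SE 0.36, adjusted p = 0.000604) and by 2.56 without it (SE 0.41, adjusted p = 0.00155), while ALPL had 0 to 5 counts in these libraries. In KP4 with M2rtTA, SH2D5 rose by 0.97 (adjusted p = 0.0114, and 0.0508 without OVOL2 + M2rtTA replicate 3). HP1BP3 fell there by 0.66 (adjusted p = 0.0376, lost without mCherry + M2rtTA replicate 1 or 2 or OVOL2 + M2rtTA replicate 1 or 3, up to 0.138). In PANC1 with M2rtTA, ECE1 fell by 0.69 (SE 0.14, adjusted p = 0.00585) and LDLRAD2 by 1.69 (SE 0.36, adjusted p = 0.00628).

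The genes whose 17 group means of log2 CPM were most like those of the ALPG and ALPP sum were EPHA2, PILRB, NDUFA3, DISP2 and ZFP36, out of 10276 genes with at least 5 CPM on average. EPHA2, an ephrin receptor tyrosine kinase, had a Pearson r of 0.922 and a Spearman rho of 0.882, and r was 0.843 without PANC1 OVOL2 + M2rtTA. EPHA2 stood at 112.4 ± 22.1 CPM in that group and at 66.7 ± 3.75 in untreated PANC1, the highest sums, but at 70.1 ± 11.6 with mCherry in PANC1, where the sum was lower. The other r values ran from 0.885 for ZFP36, a protein that binds AU-rich messenger RNA, to 0.906 for PILRB and NDUFA3. For ALPL the nearest genes were RPL23A (r = 0.912), FSD1 (0.9), VEGFC (0.895), SNCB (0.893) and SEMA6B (0.885). ALPL and these genes had higher means in every KP4 group than in any group of the other lines. ALPL had 212 counts in 35 libraries and 0 in PK45H with mCherry, so its low group means rest largely on the prior count of 2. The group means share lines and control libraries, so the r values are descriptions over 17 points that are not independent.

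**Figure D5:**
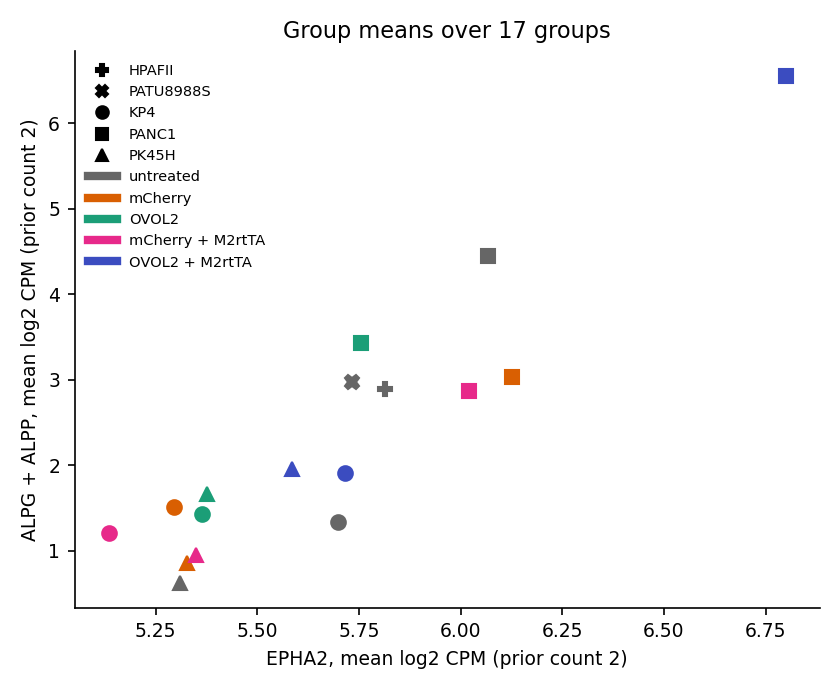
Mean log2 CPM (prior count of 2) of the ALPG and ALPP sum against that of EPHA2, one point for each of 17 groups, with symbols for the line and colours for the treatment. PANC1 OVOL2 + M2rtTA stands at the upper end of both axes, and the PANC1 groups lie above those of KP4 and PK45H.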

How the data were processed

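PLATE-seq gene counts of 51 libraries in 17 groups were used. The authors deposited unnormalised whole-number counts, 1 row per symbol; kallisto 0.44.0 and GRCh38 are named in the submitters' processing notes, with no role given, and how molecular identifiers were treated is not given in the sources used here. All 51 columns matched a sample, and 0 columns of values stayed unmatched. Intervals and limits on counts cover counting error only.

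Counts were tested in R 4.3.3 with edgeR 4.0.16 (filterByExpr by group, TMM scaling, quasi-likelihood test, two-sided, Benjamini-Hochberg adjusted over all genes of a fit, threshold 0.05). Each transduced line was fitted with its 15 libraries, the untreated lines with theirs, and the difference between KP4 and PK45H with the libraries of both. A further fit replaced ALPG and ALPP by their sum. The SE given is the absolute log2 fold change divided by the square root of the F statistic of the test. It is an approximation derived from the test, not a standard error estimated by the fit. No ratio of means is given where either group had 3 counts or fewer in sum. No fitted fold is given where every library of the groups compared had 3 counts or fewer. Members removed by the filter were compared by exact permutation within KP4 and PK45H. The alternatives tried were DESeq2 1.42.0, scaling by RLE or by plain totals, filters that keep all genes or those with a mean count of 10 or more, a replicate block, leaving out single libraries, and fits of the compared groups alone. The comparison of mCherry with untreated PANC1 was planned as a test; it is given as a description, a choice made after its result was known, since its controls entered the choice of members. The code was tested on simulated data.

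The genes named are the members; the 5 genes most correlated with the sum and with ALPL; called genes among the 5 nearest on each side of each locus; and from each list up to 3 genes with the smallest p per direction in KP4 and PK45H with M2rtTA. The members and lists were chosen with earlier results of these data known. Positions and promoters are from RefSeq (GRCh38.p14; 4 of 4 members matched), transcripts from GENCODE.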

Additional observations from a re-analysis of the deposited data

Results flagged for a closer look

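ALPP differed in sign between PANC1 and PK45H when the libraries labelled OVOL2 were set against mCherry without M2rtTA, but the sign in PANC1 rests on 1 library. Each of the 3 PANC1 libraries lay below the mean of its mCherry group, with a mean difference of -0.446 CPM, and each of the 3 PK45H libraries lay above it, with a mean difference of 1.58 CPM. The difference between the lines was not tested. In PANC1 the groups overlapped, on 6 counts with OVOL2 and 13 with mCherry, of which mCherry replicate 1 held 9. Without that replicate, an alternative chosen after seeing the data, the PANC1 mCherry mean was 0.342 CPM, below the OVOL2 mean of 0.457, and the difference turned to 0.1155 CPM.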

How the results depend on the processing

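With DESeq2, RLE scaling, the other filters (all genes, or a mean count of 10 or more) and a replicate block, the members' results that could be fitted kept their direction and their side of the threshold; with only the groups compared, ALPG in HPAFII against KP4 lost its call (adjusted p = 0.0623). Replicate numbers did not pair the libraries: the median correlation of same-numbered deviations was -0.02 in KP4, 0 in PANC1 and 0 in PK45H. With the replicate block, 0 of 55 results of the members changed call or direction; the sum changed by 1.22 in PK45H with M2rtTA (adjusted p = 0.176). The PLS1 call in KP4 was lost with the block (adjusted p = 0.0673), without a filter (0.054) and with only the groups compared (0.119).

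Leaving out 1 library reversed small changes that had not passed. The sum in KP4 without M2rtTA ran from -0.569 to 0.432 (reversed at -0.0950 and -0.569), ALPG in KP4 with M2rtTA from -0.0596 to 0.923, ALPG over KP4 and PK45H without M2rtTA from -0.298 to 0.0158, and the sum from untreated to mCherry in KP4 from -0.0249 to 0.539. In PK45H, the change of the OVOL2 effect by M2rtTA ran from -0.251 to 0.671, mCherry + M2rtTA against mCherry from -0.0912 to 0.430, and mCherry against untreated from -0.310 to 0.899. Among untreated lines, the sum in HPAFII against PATU8988S ran from -0.253 to 0.135, and ALPP ran from -1.61 to 0.333 in KP4 against PANC1, from -2.24 to 0.0692 in KP4 against PK45H and from -1.36 to 0.459 in PANC1 against PK45H. The sum in KP4 against PK45H ran from 0.256 to 1.46 and passed without PK45H untreated replicate 3 (adjusted p = 0.0489). The sum in HPAFII and PATU8988S against the other lines ran from 0.730 to 1.13 and lost its call at 0.804 (adjusted p = 0.0529, without HPAFII replicate 1).

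Of 48 list and neighbour results named, 17 lost their call under at least 1 alternative and 0 reversed. With only the groups compared, adjusted p rose over the threshold also for SH2D5 (0.0633) and HP1BP3 (0.0876) in KP4, and for GATA3 (0.0687), MSX2 (0.0681), CDHR2 (0.0643) and ESPN (0.059) in PK45H. ESPN in PK45H (0.0539) and PTMA in KP4 (0.0598) lost their call without a filter, and PTMA with only the groups compared (0.0837). Counts over all genes moved more: for mCherry against untreated in PANC1, 43 genes were called lower and 36 higher in edgeR, 104 and 74 in DESeq2, and 13 and 10 with only the groups compared; leaving out 1 library gave 14 to 22 and 13 to 38. In PK45H, 1 gene passed from untreated to mCherry in edgeR, and DESeq2 called 20 higher and 21 lower. With only the groups compared, OVOL2 without M2rtTA gave 260 higher and 272 lower genes in KP4 (446 and 486 in the full fit), 125 and 177 in PANC1 (280 and 391) and 244 and 384 in PK45H (486 and 653); with M2rtTA it gave 464 higher in PANC1 (762) and 690 lower in PK45H (1141). The change of the OVOL2 effect by M2rtTA gave 57 higher and 138 lower genes in KP4 (145 and 307 in DESeq2, 28 and 84 with the block, 27 and 87 without a filter, 39 and 77 with only the groups compared) and 114 and 103 in PK45H (359 and 356, 66 and 50, 66 and 80, and 75 and 53). Leaving out 1 library without M2rtTA gave 222 to 278 higher genes in KP4, 276 to 387 in PK45H and 144 to 197 in PANC1; with M2rtTA it gave 471 to 705 higher in PANC1. Leave-one-out of the KP4 minus PK45H fit was not run. ALPP, ALPL and ALPI had at most 24, 22 and 4 counts in any library, which limits what could be detected.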
